A study of Mus musculus with 12 samples.

Results

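Mitochondrial fatty acid oxidation and ketogenesis were followed through 33 genes, all 33 of which were found by symbol among the 24453 genes of both deposited tables. In this pathway the carnitine shuttle brings long-chain fatty acids into mitochondria, and acyl-CoA dehydrogenases, hydratases, a second dehydrogenase and thiolases then shorten them in repeated rounds that yield acetyl-CoA. Electrons from the first oxidation pass through the electron-transferring flavoprotein to the respiratory chain, and liver turns part of the acetyl-CoA into ketone bodies. AMPK, a kinase that senses low cellular energy, is known for acting on this pathway by phosphorylating acetyl-CoA carboxylase, whose product malonyl-CoA inhibits carnitine palmitoyltransferase 1.

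Liver RNA came from C57Bl/6J mice kept for 8 weeks on a diet in which fat supplied 45% of calories. All 4 groups carried ColA-AMPKa1(312)/AMPKa1(312), an inducible AMPK α1 allele, together with R26-rtTA/rtTA, the transactivator it needs. iAMPK mice had no further allele, L-iAMPK mice also carried Albumin-Cre, which is active in hepatocytes, and each genotype received the diet without doxycycline (HFD) or with it (HFD+dox). Each group had 3 libraries, and the labels call AMPK active in one of them, L-iAMPK HFD+dox, and inactive in the rest. The labels used here give no age and do not say that the libraries of a group came from separate animals, so the p-values here cover the spread between these samples alone, which may be technical.

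Levels are FPKM (fragments counted per length of transcript and per depth of library), given as single libraries in the order of replicates 1, 2 and 3 or as mean ± SD with n = 3. Changes are differences ± SE of log2(FPKM + 0.5), and "rose" and "fell" are used of genes whose limma p, adjusted by Benjamini-Hochberg over 12614 tested genes, was under 0.05. The 33 members all passed the filter on low values. The transgene was seen where the labels place it, since Prkaa1, the gene of the α1 subunit, stood at 1265, 947 and 1003 FPKM in L-iAMPK HFD+dox and at 2.62 to 4.12 FPKM in the other 9 libraries. Depth in the 11 libraries whose recovered reads were used ran from 13569437 to 20696899 reads in genes, and a member's row held between 98 (Acad12) and 21822 (Cpt1a) of them. The common scale of the libraries matters here: on deposited FPKM the median change of all tested genes was -0.13 between L-iAMPK HFD+dox and L-iAMPK HFD, and after median-ratio scaling of the libraries it was 0.02. Values after that scaling are therefore given beside the deposited ones. L-iAMPK HFD replicate 3 stood apart from its group for several members, and counts without it are given with the results.

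Of the 33 members, 20 fell and 0 rose when L-iAMPK HFD+dox was compared with L-iAMPK HFD, against 21.1% of all tested genes that fell and 4.76% that rose. After median-ratio scaling 10 fell, against 10.6% of all genes, and 1 rose, against 13.1%. After quantile normalization 17 fell and 1 rose, against 10.5% and 12.5%, and with edgeR on recovered reads 9 fell and 1 rose, against 11.3% and 10.9%. The median change of the members was -0.33 on deposited FPKM and -0.15 after scaling. In the same comparison 4 of 6 stellate cell markers and 3 of 6 endothelial markers fell, while 2 of 7 hepatocyte markers rose; their part in the members' changes was not tested. Genes of carnitine entry, the first dehydrogenation, the trifunctional protein and ketone body metabolism were among those that fell, while the medium-chain acyl-CoA synthetases and the abundant thiolase gene Acaa2 did not pass. The 3 libraries with active AMPK lay below all 3 of L-iAMPK HFD for 21 members, against 34.9% of tested genes, and below all of the other 9 libraries for 15 members, against 12.2%. No member had its 3 active libraries above all others, as 4.19% of tested genes did. These orders, and those of single libraries given below, are of deposited FPKM. After median-ratio scaling, iAMPK HFD+dox replicate 3 lay under the highest active library for some of the 15 members, Cpt1a among them. In the 12 refits that each left out 1 library, 18 to 20 members fell, with 19 when L-iAMPK HFD replicate 3 was left out.

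**Figure D1:**
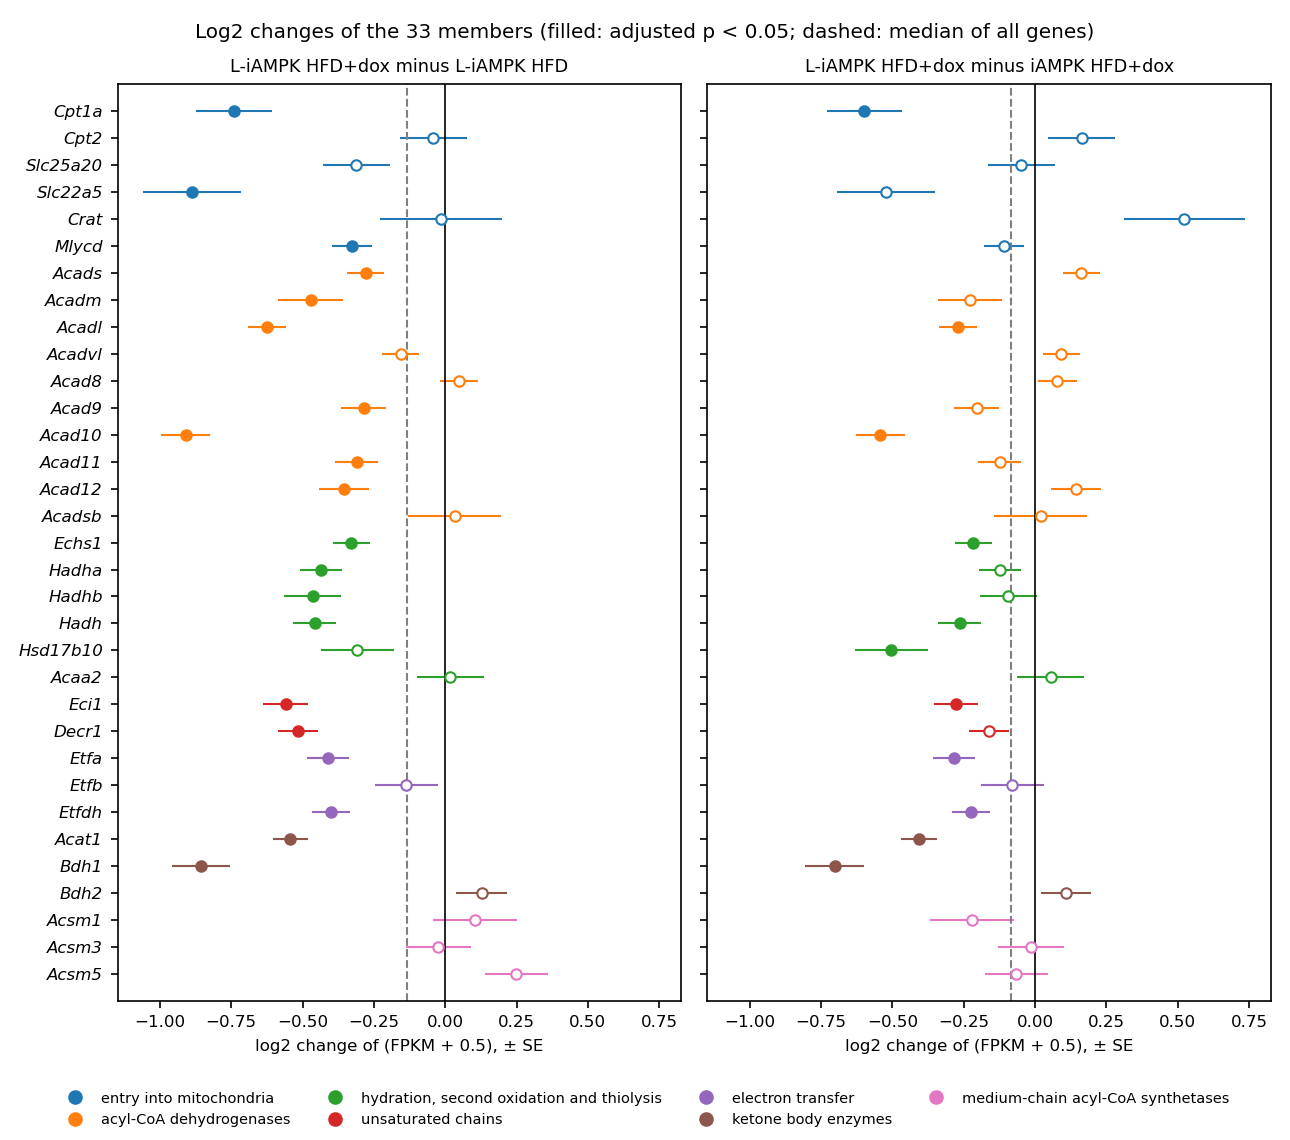
Log2 change of (FPKM + 0.5) ± SE of each of the 33 members, coloured by step, for L-iAMPK HFD+dox minus L-iAMPK HFD (left) and minus iAMPK HFD+dox (right). Filled points have an adjusted p under 0.05, and the dashed lines mark the median change of all tested genes, -0.13 on the left and -0.08 on the right; filled points on the left number 20 and all lie below 0.

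The 33 genes lie on 14 chromosomes, and several are neighbours. Hadha (chr5:30118304-30154980, minus strand, mm10) and Hadhb (chr5:30155253-30184593, plus strand) start back to back with 272 bases between their starts. Acad12 and Acad10 follow each other on the minus strand of chromosome 5 with 2090 bases between them, and their transcripts are 95.3% identical over 1614 bases, so reads could be split between them. Acsm5, Acsm1 and Acsm3 form a row on the plus strand of chromosome 7, with 74467 and 98407 bases between them. Windows of 250 bases before the start site were available from RefSeq (GRCm38.p6) for 28 members in 29 windows. Those of 5 members that fell and of Acsm5, the member with the largest change in the opposite direction, are shown to let the bases upstream of these genes be compared. The windows are Acad10 (chr5:121660511-121660760, minus strand), Acadl (chr1:66863310-66863559, minus strand), Bdh1 (chr16:31422047-31422296, plus strand), Eci1 (chr17:24426433-24426682, plus strand), Hadha (chr5:30154981-30155230, minus strand) and Acsm5 (chr7:119526015-119526264, plus strand). Each is written 5′ to 3′ on the strand of its gene and ends at the base before the start site, and capitals mark GC boxes (GGGCGG on either strand).
Acad10: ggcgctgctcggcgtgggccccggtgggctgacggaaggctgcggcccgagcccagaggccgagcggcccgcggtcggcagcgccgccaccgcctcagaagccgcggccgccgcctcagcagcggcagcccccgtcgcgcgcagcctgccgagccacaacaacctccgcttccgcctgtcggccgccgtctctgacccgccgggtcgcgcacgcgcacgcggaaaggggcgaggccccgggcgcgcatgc
Acadl: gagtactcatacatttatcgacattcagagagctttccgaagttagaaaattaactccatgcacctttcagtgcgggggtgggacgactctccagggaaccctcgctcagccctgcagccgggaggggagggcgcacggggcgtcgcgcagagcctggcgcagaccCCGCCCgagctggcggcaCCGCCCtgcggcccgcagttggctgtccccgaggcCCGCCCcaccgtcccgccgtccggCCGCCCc
Bdh1: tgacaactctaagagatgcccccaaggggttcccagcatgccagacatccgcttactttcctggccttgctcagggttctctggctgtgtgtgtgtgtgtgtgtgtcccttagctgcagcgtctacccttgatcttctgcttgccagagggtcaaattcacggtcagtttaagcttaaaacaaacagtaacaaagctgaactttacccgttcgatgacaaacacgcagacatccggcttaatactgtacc
Eci1: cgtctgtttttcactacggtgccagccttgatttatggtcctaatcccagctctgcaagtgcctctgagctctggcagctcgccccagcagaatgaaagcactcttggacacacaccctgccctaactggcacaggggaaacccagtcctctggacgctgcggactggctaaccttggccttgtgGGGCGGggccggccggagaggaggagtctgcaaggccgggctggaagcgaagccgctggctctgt
Hadha: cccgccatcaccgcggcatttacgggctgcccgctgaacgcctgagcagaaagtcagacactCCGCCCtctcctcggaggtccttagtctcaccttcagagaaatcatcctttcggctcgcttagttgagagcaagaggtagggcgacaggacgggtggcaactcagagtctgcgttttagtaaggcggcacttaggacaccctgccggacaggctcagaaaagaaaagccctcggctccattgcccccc
Acsm5: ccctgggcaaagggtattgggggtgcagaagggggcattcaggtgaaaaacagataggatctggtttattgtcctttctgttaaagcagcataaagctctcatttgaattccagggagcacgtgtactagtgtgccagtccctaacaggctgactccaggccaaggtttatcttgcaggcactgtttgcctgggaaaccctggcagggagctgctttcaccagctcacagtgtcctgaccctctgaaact

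The Acad10 window was the richest in G and C of the 29, at 79.6%, and the Acadl window held 4 GC boxes, while the Bdh1 and Acsm5 windows shown held none and had 49.6% and 51.2% G and C. The Bdh1 window shown is that of the start in the FPKM table, and RefSeq gives a second (chr16:31428503-31428752, plus strand), which also held no GC box and had 60.8% G and C. GC boxes stood in 15 of the 29 windows (51.7%) and in 32.7% of all 32851 windows of the table. The median share of G and C was 58.8% in the windows of members and 52.4% in all windows. The estrogen-related receptor element TCAAGGTCA and the cyclic AMP response element TGACGTCA, each searched on both strands, were in 0 of the 29 windows and in 0.387% and 1.55% of all windows. At shares this low most sets of 29 windows would hold no match, so their absence says little about the members. These matches describe the letters of the windows and were not tied to any measurement of binding.

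Of the 6 genes of carnitine-dependent entry into mitochondria and its control by malonyl-CoA, 3 fell with active AMPK against L-iAMPK HFD. Cpt1a (chr19:3323301-3385733, plus strand), the liver form of carnitine palmitoyltransferase 1 that forms acylcarnitines at the outer membrane, stood at 153, 102 and 126 FPKM in L-iAMPK HFD+dox and at 216, 224 and 191 FPKM in L-iAMPK HFD. It stood at 201, 201 and 171 FPKM in iAMPK HFD+dox and at 185, 205 and 194 FPKM in iAMPK HFD. The 3 active libraries lay below all others, and replicate 2 was the lowest of them. The change against L-iAMPK HFD was -0.74 ± 0.13 (adjusted p 0.00348) and after median-ratio scaling -0.56 (adjusted p 0.0160).

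Slc22a5 (chr11:53864542-53891703, minus strand) encodes the plasma membrane carnitine transporter OCTN2 and was far lower in level, at 7.88, 5.004 and 6.08 FPKM in L-iAMPK HFD+dox, 11.8, 9.69 and 14.8 FPKM in L-iAMPK HFD, 9.63, 9.88 and 8.08 FPKM in iAMPK HFD+dox and 9.26, 9.24 and 11.1 FPKM in iAMPK HFD. The active libraries again held the 3 lowest values of the 12. It fell by 0.89 ± 0.17 on the log2 scale (adjusted p 0.00530), and scaling left a change of -0.72 (adjusted p 0.0175). Its transcript shares 98.3% identity over 831 bases with Slc22a21, so its level is uncertain. Mlycd, malonyl-CoA decarboxylase, which removes the inhibitor of Cpt1a, read 42.5, 38.9 and 38.7 FPKM in L-iAMPK HFD+dox, 49.8, 47.9 and 53.5 FPKM in L-iAMPK HFD, 45.7, 41.6 and 42.3 FPKM in iAMPK HFD+dox and 50.1, 50.2 and 45.9 FPKM in iAMPK HFD. Active and L-iAMPK HFD libraries did not overlap, but iAMPK HFD+dox libraries reached down to the active ones. Its change of -0.33 ± 0.07 (adjusted p 0.00822) became -0.15 after scaling and did not pass (adjusted p 0.206).

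The other 3 entry genes did not pass. Cpt2, the inner membrane partner of Cpt1a, was -0.04 on the log2 scale, the acylcarnitine carrier Slc25a20 -0.31 (adjusted p 0.0725), and carnitine acetyltransferase, Crat, -0.01. Crat differed between libraries of iAMPK HFD more than any other member in any group, at 15.96, 27.3 and 29.00 FPKM, a coefficient of variation of 29.4%. The summed level of the 6 genes was 362 ± 55.7 FPKM in L-iAMPK HFD+dox and 481 ± 8.77 FPKM in L-iAMPK HFD.

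Acyl-CoA dehydrogenases are flavin enzymes that make the first oxidation and differ in the chains they take. Of their 10 genes, 7 fell against L-iAMPK HFD and 2 of them, Acadl and Acad10, also passed after median-ratio scaling. Acadl (chr1:66830839-66863309, minus strand), long-chain acyl-CoA dehydrogenase, stood at 92.1, 90.4 and 99.2 FPKM in L-iAMPK HFD+dox, 147, 141 and 147 FPKM in L-iAMPK HFD, 116, 116 and 109 FPKM in iAMPK HFD+dox and 114, 125 and 118 FPKM in iAMPK HFD. Its active libraries were below every other library, and those of L-iAMPK HFD were above every other. It changed by -0.62 ± 0.07 (adjusted p 0.000207) and after scaling by -0.45 (adjusted p 0.00322).

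Acad10 (chr5:121621029-121660510, minus strand), one of the less studied members of the family, had the smallest adjusted p of the 33. It stood at 5.83, 5.53 and 5.49 FPKM in L-iAMPK HFD+dox, 11.1, 11.7 and 10.2 FPKM in L-iAMPK HFD, 8.12, 8.92 and 8.19 FPKM in iAMPK HFD+dox and 8.73, 10.3 and 8.26 FPKM in iAMPK HFD. The active group was the tightest of the 4, with an SD of 0.186 FPKM, and lay apart from the rest. The change was -0.91 ± 0.09 (adjusted p 0.000122), and after scaling -0.74 (adjusted p 0.000331). Its neighbour and near copy Acad12 read 3.17, 3.25 and 3.13 FPKM in L-iAMPK HFD+dox and 4.58, 4.26 and 3.81 FPKM in L-iAMPK HFD, and 2.55, 2.92 and 3.06 FPKM in iAMPK HFD+dox and 2.68, 2.96 and 2.90 FPKM in iAMPK HFD. For Acad12 it was L-iAMPK HFD that stood above all other libraries, while the active group was above both iAMPK groups. Its change of -0.35 ± 0.09 (adjusted p 0.0147) was lost after scaling (adjusted p 0.0739) and when L-iAMPK HFD replicate 1 was left out (adjusted p 0.0632).

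Acadm, medium-chain acyl-CoA dehydrogenase, had 211, 187 and 208 FPKM in L-iAMPK HFD+dox, 269, 252 and 324 FPKM in L-iAMPK HFD, 244, 239 and 227 FPKM in iAMPK HFD+dox and 209, 264 and 261 FPKM in iAMPK HFD. The low value of iAMPK HFD replicate 1 lay among the active libraries. It changed by -0.47 ± 0.11 (adjusted p 0.0129), which did not pass without L-iAMPK HFD+dox replicate 2 (adjusted p 0.0501). Acads, the short-chain enzyme, had 114, 110.0 and 104 FPKM in L-iAMPK HFD+dox, 132, 129.7 and 137 FPKM in L-iAMPK HFD, 97.1, 95.4 and 101 FPKM in iAMPK HFD+dox and 106, 108 and 97.6 FPKM in iAMPK HFD. As with Acad12, the active libraries were below L-iAMPK HFD and reached above the iAMPK groups, whose highest library they overlapped. Its change was -0.28 ± 0.06 (adjusted p 0.0112).

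Acad9, which also serves the assembly of respiratory complex I, stood at 9.70, 9.74 and 9.96 FPKM in L-iAMPK HFD+dox, 11.97, 11.3 and 12.9 FPKM in L-iAMPK HFD, 10.3, 11.6 and 12.3 FPKM in iAMPK HFD+dox and 10.02, 10.3 and 11.2 FPKM in iAMPK HFD. The active values were the 3 lowest, though close to the lowest of iAMPK HFD, and the change of -0.29 ± 0.08 (adjusted p 0.0232) was lost in 5 of the 12 refits that left out a library, up to an adjusted p of 0.0626. Those were the refits without L-iAMPK HFD replicate 1 or 3 and without any of the L-iAMPK HFD+dox libraries. For Acad11 the values were 156, 150.2 and 156 FPKM in L-iAMPK HFD+dox, 186, 179 and 210.2 FPKM in L-iAMPK HFD, 169, 178 and 158 FPKM in iAMPK HFD+dox and 166, 171 and 172 FPKM in iAMPK HFD. They too were lowest in the active group, with a change of -0.31 ± 0.08 (adjusted p 0.0135). Acads, Acadm, Acad9, Acad11 and Acad12 did not pass after scaling, with changes of -0.10, -0.30, -0.12, -0.13 and -0.20.

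Acadvl, the very-long-chain enzyme, and the branched-chain enzymes Acad8 and Acadsb did not pass, at -0.16, 0.05 and 0.03. The change of Acadvl was above 0 after scaling, at 0.02. Acadvl ranged from 178 to 225 FPKM over the 12 libraries, Acad8 from 20.5 to 23.2 FPKM and Acadsb from 29.6 to 46.01 FPKM. Exons of Dvl2 on the opposite strand cover 45% of the Acadvl transcript, and no source used here says if reads were counted by strand.

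**Figure D2:**
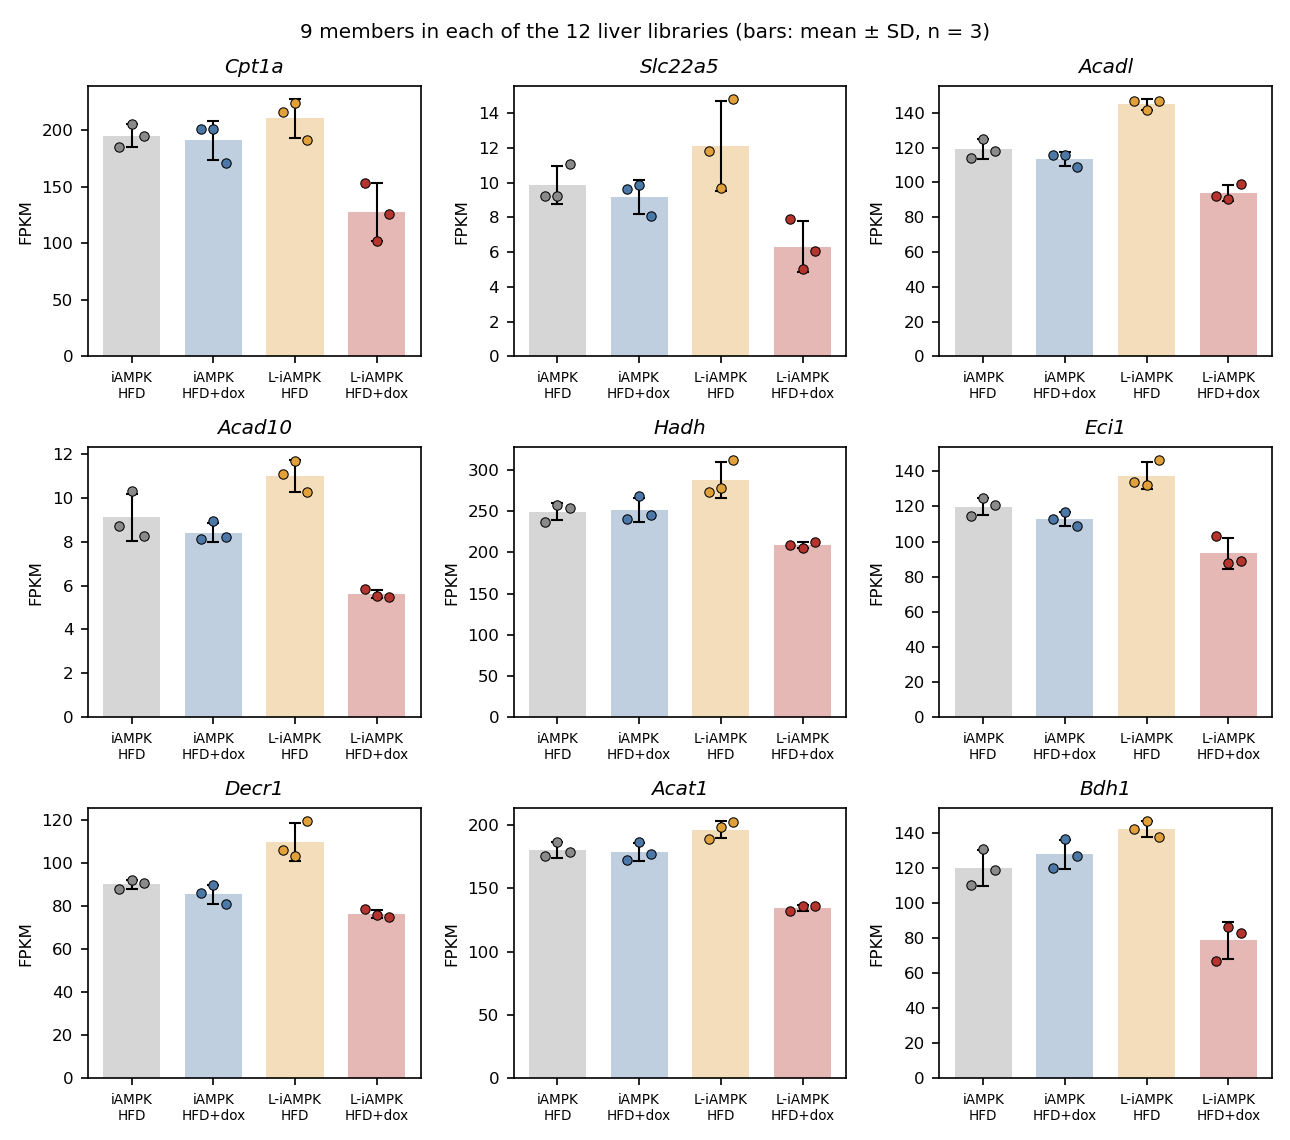
FPKM of 9 members in each of the 12 liver libraries by group, with bars at the mean and whiskers of 1 SD (n = 3). These 9 passed the test against L-iAMPK HFD on deposited FPKM and under all 22 alternatives. In each panel, drawn on deposited FPKM, the 3 points of L-iAMPK HFD+dox lie below the other 9. After median-ratio scaling, iAMPK HFD+dox replicate 3 lies under the highest active library for Cpt1a, Slc22a5, Acadl, Eci1 and Decr1.

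Of the 6 genes of hydration, second oxidation and thiolysis, 4 fell against L-iAMPK HFD. Hadha, the α subunit of the trifunctional protein that carries hydratase and dehydrogenase activities for long chains, stood at 98.1, 93.8 and 96.03 FPKM in L-iAMPK HFD+dox, 137, 134 and 119 FPKM in L-iAMPK HFD, 107, 108 and 99.1 FPKM in iAMPK HFD+dox and 106, 109 and 99.5 FPKM in iAMPK HFD. The active values lay just under the lowest of the iAMPK groups and well under L-iAMPK HFD. The change was -0.44 ± 0.07 (adjusted p 0.00242), and -0.26 after scaling (adjusted p 0.0396).

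Hadhb, the β subunit with the thiolase activity, shares its start region with Hadha, shown above. It read 11.5, 10.2 and 11.1 FPKM in L-iAMPK HFD+dox, 15.9, 15.7 and 14.3 FPKM in L-iAMPK HFD, 12.5, 12.6 and 10.1 FPKM in iAMPK HFD+dox and 12.05, 14.3 and 12.1 FPKM in iAMPK HFD. Active libraries lay below L-iAMPK HFD, and iAMPK HFD+dox replicate 3 was the lowest of the 12. It changed by -0.46 ± 0.10 (adjusted p 0.00831) and after scaling by -0.29 (adjusted p 0.0736). Its mean of 12.7 FPKM over all libraries stood far below the 109 FPKM of Hadha. Hadhb has processed pseudogenes that match it at 99.8% (Gm13910) and 97.6% (Gm9108), so its level is uncertain.

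Hadh (chr3:131233420-131272101, minus strand), the dehydrogenase for medium and short chains, had 209, 206 and 212 FPKM in L-iAMPK HFD+dox, 273, 278 and 312 FPKM in L-iAMPK HFD, 241, 268 and 245 FPKM in iAMPK HFD+dox and 237, 257 and 254 FPKM in iAMPK HFD. Its active libraries lay close together and below the rest. The change was -0.46 ± 0.08 (adjusted p 0.00243), and after scaling -0.28 (adjusted p 0.0362). Echs1, the short-chain hydratase, read 146, 152 and 154 FPKM in L-iAMPK HFD+dox, 183, 185 and 201 FPKM in L-iAMPK HFD, 179, 180.0 and 166 FPKM in iAMPK HFD+dox and 177, 177 and 177 FPKM in iAMPK HFD. It too was lowest in the active group, and its change of -0.33 ± 0.07 (adjusted p 0.00564) became -0.15 after scaling (adjusted p 0.201).

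Acaa2, the mitochondrial thiolase and the highest of the 33 at a mean of 546 FPKM, had a log2 difference of 0.02 ± 0.12 without passing (adjusted p 0.924) and ranged from 477 to 666 FPKM. L-iAMPK HFD replicate 3 was its highest library, and the other 2 libraries of that group were among its 3 lowest. Hsd17b10, which oxidises short branched chains and is also a subunit of mitochondrial RNase P, stood at 119, 97.4 and 107 FPKM in L-iAMPK HFD+dox, 113, 129.6 and 161 FPKM in L-iAMPK HFD, 169.8, 153 and 137 FPKM in iAMPK HFD+dox and 160.5, 157 and 172 FPKM in iAMPK HFD. Its active libraries were below all iAMPK libraries but overlapped those of L-iAMPK HFD. The difference from L-iAMPK HFD, -0.31 ± 0.13, did not pass (adjusted p 0.0963).

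Both auxiliary enzymes for unsaturated chains fell. Eci1 (chr17:24426683-24439316, plus strand), which moves double bonds into position, stood at 103, 87.6 and 89.1 FPKM in L-iAMPK HFD+dox, 134, 132 and 147 FPKM in L-iAMPK HFD, 113, 117 and 109 FPKM in iAMPK HFD+dox and 115, 125 and 121 FPKM in iAMPK HFD. Decr1 (chr4:15917240-15945507, minus strand), which reduces conjugated double bonds, stood at 78.4, 75.5 and 75.02 FPKM in L-iAMPK HFD+dox, 106, 103 and 119 FPKM in L-iAMPK HFD, 85.9, 89.6 and 80.8 FPKM in iAMPK HFD+dox and 87.7, 91.9 and 90.5 FPKM in iAMPK HFD. For both genes the active libraries were the 3 lowest and L-iAMPK HFD held the 3 highest. Eci1 changed by -0.56 ± 0.08 (adjusted p 0.00102) and after scaling by -0.38 (adjusted p 0.0124). Decr1 changed by -0.52 ± 0.07 (adjusted p 0.000893) and after scaling by -0.34 (adjusted p 0.0174).

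Of the genes that pass electrons from the dehydrogenases to the respiratory chain, 2 of 3 fell on deposited FPKM and 0 passed after scaling. Etfa, the α subunit of the flavoprotein, stood at 125, 121 and 125 FPKM in L-iAMPK HFD+dox, 154, 159 and 181 FPKM in L-iAMPK HFD, 156, 152 and 145 FPKM in iAMPK HFD+dox and 162, 155 and 152 FPKM in iAMPK HFD. Etfdh, the ubiquinone oxidoreductase that accepts its electrons, stood at 152, 139.7 and 140.0 FPKM in L-iAMPK HFD+dox, 184, 187 and 199 FPKM in L-iAMPK HFD, 165, 174 and 165 FPKM in iAMPK HFD+dox and 161, 174 and 169 FPKM in iAMPK HFD. Active libraries were below all others for both genes. Etfa changed by -0.41 ± 0.07 (adjusted p 0.00345; 0.0815 after scaling, at -0.23). Etfdh changed by -0.40 ± 0.07 (adjusted p 0.00260; 0.0577 after scaling, at -0.22). Etfb, the β subunit, did not pass at -0.14 ± 0.11 (adjusted p 0.386) and was 0.04 after scaling. It ranged from 204 to 285 FPKM, with L-iAMPK HFD replicate 3 the highest library. Exons of Gm45233 on the same strand cover 69.1% of the Etfb transcript, so its level is uncertain. Exons of other genes cover 14.2% of Acad9 (Gm43079, same strand) and 13.9% of Acad11 (Ackr4, opposite strand), and Etfa has a pseudogene, Gm15289, that matches it at 95.1% over 244 bases.

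Among the ketone body enzymes Acat1 and Bdh1 fell and Bdh2 did not pass. Acat1 (chr9:53580522-53610350, minus strand), the mitochondrial acetoacetyl-CoA thiolase, stood at 132, 136 and 136 FPKM in L-iAMPK HFD+dox, 189, 198 and 202 FPKM in L-iAMPK HFD, 172, 186 and 177 FPKM in iAMPK HFD+dox and 175, 187 and 178 FPKM in iAMPK HFD. Bdh1 (chr16:31422297-31458901, plus strand), which interconverts acetoacetate and β-hydroxybutyrate in mitochondria, stood at 66.7, 86.5 and 83.1 FPKM in L-iAMPK HFD+dox, 142, 147 and 137 FPKM in L-iAMPK HFD, 120.1, 137 and 127 FPKM in iAMPK HFD+dox and 110.1, 131 and 119 FPKM in iAMPK HFD. For both, the gap between the highest active library and the lowest other library was wider than the spread of the active group. Acat1 changed by -0.54 ± 0.06 (adjusted p 0.000420) and after scaling by -0.37 (adjusted p 0.00601). Bdh1 changed by -0.86 ± 0.10 (adjusted p 0.000479) and after scaling by -0.68 (adjusted p 0.00192). Bdh2, a cytosolic relative, had a difference of 0.13 ± 0.09 (adjusted p 0.309). The summed level of the 3 genes was 226 ± 13.4 FPKM in L-iAMPK HFD+dox, 350.4 ± 7.63 FPKM in L-iAMPK HFD, 319 ± 14.8 FPKM in iAMPK HFD+dox and 314 ± 16.5 FPKM in iAMPK HFD.

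The medium-chain acyl-CoA synthetase genes Acsm1, Acsm3 and Acsm5, whose products activate medium-chain fatty acids inside mitochondria, did not pass on deposited FPKM, at 0.10 ± 0.15, -0.02 ± 0.12 and 0.25 ± 0.11. Acsm5 had 59.5, 49.7 and 64.1 FPKM in L-iAMPK HFD+dox, 44.02, 47.4 and 53.9 FPKM in L-iAMPK HFD, 65.3, 60.4 and 55.05 FPKM in iAMPK HFD+dox and 70.8, 61.7 and 61.1 FPKM in iAMPK HFD. Its L-iAMPK HFD libraries were below all of the iAMPK libraries and overlapped the active ones. After scaling its change of 0.42 passed (adjusted p 0.0327), and it was the 1 member that rose on that scale. Exons of Eri2 on the opposite strand cover 34% of the Acsm3 transcript.

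**Figure D3:**
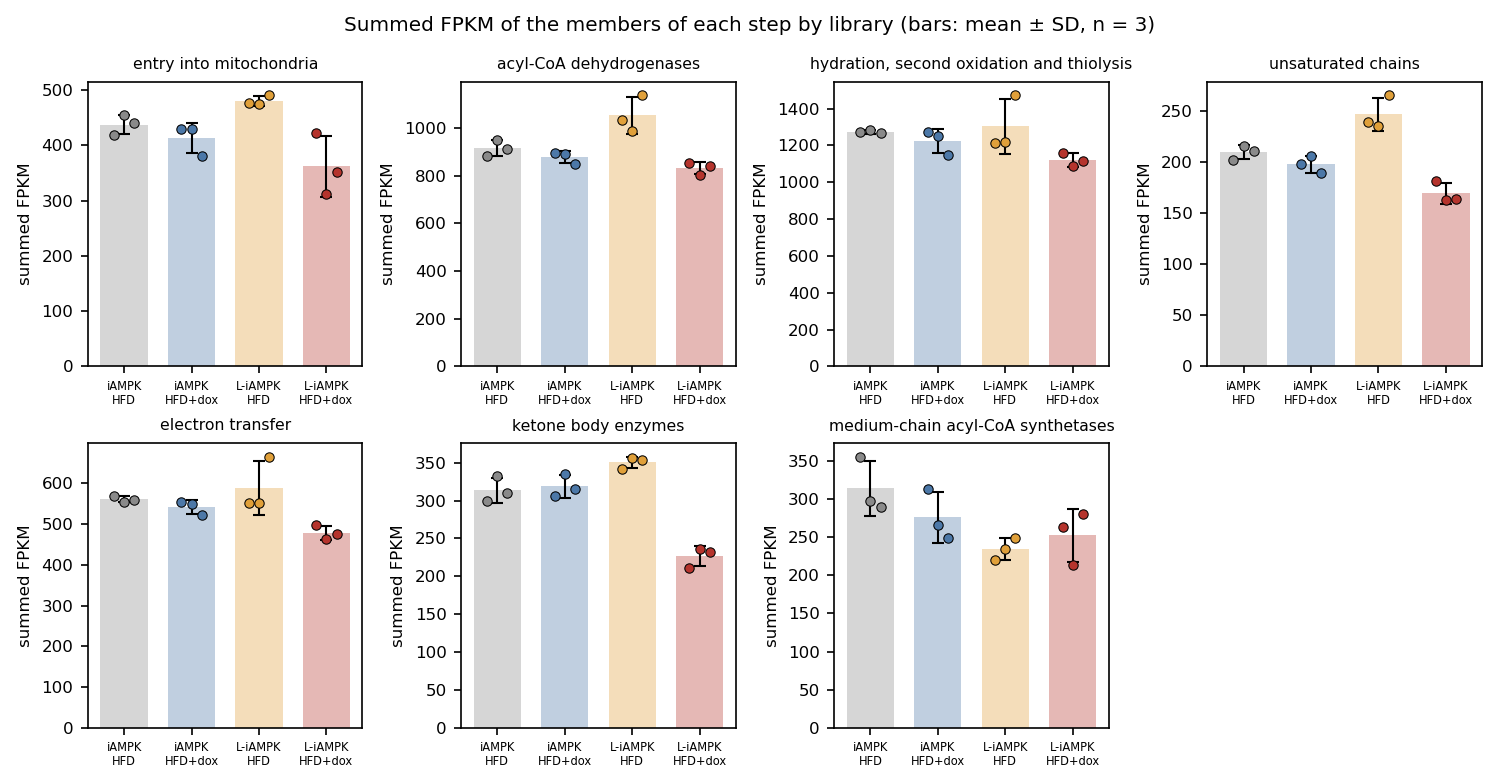
Summed FPKM of the members of each of the 7 steps in the 12 libraries, with bars at the mean and whiskers of 1 SD (n = 3). In 6 of the 7 panels L-iAMPK HFD+dox has the lowest mean, and in the panel of medium-chain acyl-CoA synthetases L-iAMPK HFD has it. The sums are of deposited FPKM, without median-ratio scaling.

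The number of members that passed depended on the scale of the libraries, and 10 of the 20 members that fell on deposited FPKM also fell after median-ratio scaling, namely Cpt1a, Slc22a5, Acadl, Acad10, Hadha, Hadh, Eci1, Decr1, Acat1 and Bdh1. Of these, 9 passed under all 22 alternatives tried, Hadha being the exception. The authors' deposited table of comparisons, which also gave the recovered reads for edgeR, was joined to the FPKM by symbol alone. For 5 members (Crat, Hadhb, Bdh1, Bdh2 and Acsm3) it lists another transcript than the FPKM table. For Crat and Bdh1 the listed transcript is on another chromosome (15 and 11 in place of 2 and 16). Even so, their lowest and highest recovered reads matched FPKM multiplied by library total and by transcript length in the FPKM table. Those reads were 1468 and 4149 for Crat and 4648 and 10320 for Bdh1. In those libraries the reads of Crat and Bdh1 thus went with the transcript of the FPKM table. For Hadhb (390 and 719 reads) and Acsm3 (2931 and 5010) the lowest and highest recovered reads also lay close to that product. Those of Bdh2 (241 and 361) lay further above it, so its deposited and edgeR values may not refer to the same transcript as the FPKM. In the authors' deposited table for L-iAMPK_HFD vs. L-iAMPK_HFDdoxy, 5 members were lower in the active group at an adjusted p under 0.05, against 6.64% of its genes, and 1 was higher, against 4.27%. The lower ones in the authors' deposited table were Cpt1a at -0.55 (adjusted p 0.0110), Slc22a5 at -0.76 (adjusted p 0.00171), Acadl at -0.45 (adjusted p 0.0131), Acad10 at -0.79 (adjusted p 4.77e-07) and Bdh1 at -0.67 (adjusted p 0.000253). The higher one in the authors' deposited table was Acsm5 at 0.43 (adjusted p 0.0480).

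**Figure D4:**
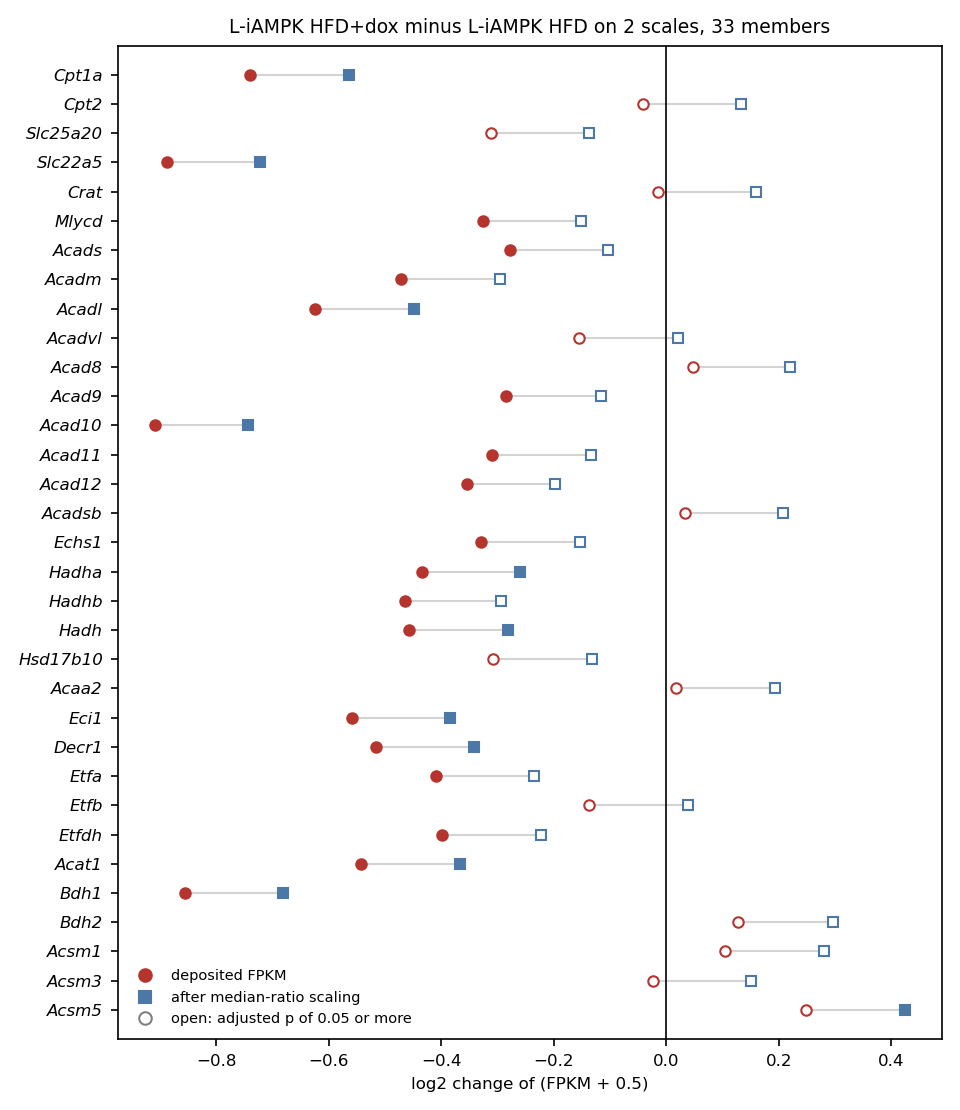
Log2 change of (FPKM + 0.5) of the 33 members for L-iAMPK HFD+dox minus L-iAMPK HFD, on deposited FPKM (circles) and after median-ratio scaling (squares), filled where the adjusted p is under 0.05. Scaling moves every member to the right, leaves 10 filled squares below 0 and gives 1 above 0, Acsm5.

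The second comparison with active AMPK set L-iAMPK HFD+dox against iAMPK HFD+dox, which had the same diet with doxycycline but no Albumin-Cre. Here 11 members fell and 0 rose, against 10.3% and 4.61% of tested genes, and after median-ratio scaling 4 fell and 1 rose, against 6.9% and 8.95%. After quantile normalization 5 fell and 2 rose, against 6.98% and 9.77%, and with edgeR 2 fell and 0 rose, against 4.23% and 3.91%. The edgeR fit lacked iAMPK HFD+dox replicate 2, and limma without that library called 3 that fell, so method and library are not separated here. The median change of the members was -0.12 on deposited FPKM, beside -0.08 for all genes, which was 0.01 after median-ratio scaling. Bdh1 changed by -0.70 ± 0.10 (adjusted p 0.00177), Cpt1a by -0.60 ± 0.13 (adjusted p 0.0132), Acad10 by -0.54 ± 0.09 (adjusted p 0.00269) and Acat1 by -0.41 ± 0.06 (adjusted p 0.00231). These 4 were also the ones that fell after scaling, at -0.60, -0.50, -0.45 and -0.30. Hsd17b10, at -0.50 ± 0.13 (adjusted p 0.0237), fell here on deposited FPKM. The other 6, Acadl, Echs1, Hadh, Eci1, Etfa and Etfdh, had changes of -0.22 to -0.28, with adjusted p from 0.0195 to 0.0456. Acads was the member that rose after scaling, at 0.26 (adjusted p 0.0287), and on deposited FPKM it was 0.16 without passing. Crat had its 3 active libraries above those of iAMPK HFD+dox at 0.52 ± 0.21, without passing (adjusted p 0.124).

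Most of these calls depended on which libraries were in the fit. Acad10, Bdh1 and Acat1 passed in all 12 refits that left out 1 library, and Cpt1a missed only without iAMPK HFD+dox replicate 2 (adjusted p 0.0540). Acadl missed in 3 of the refits, Hsd17b10 in 4, Etfa in 5, Eci1 in 6, Hadh in 7, and Echs1 and Etfdh in 11 each. The count of 11 became 3 without iAMPK HFD+dox replicate 2, 4 without L-iAMPK HFD+dox replicate 2 and 5 without L-iAMPK HFD+dox replicate 3. It became 7 without replicate 1 or 3 of iAMPK HFD+dox or replicate 1 of L-iAMPK HFD+dox, and it was 8 to 12 in the other 6 refits. In the authors' deposited table for iAMPK_HFDdoxy vs. L-iAMPK_HFDdoxy, 2 members were lower, against 3.79% of genes, and 1 was higher, against 2.57%. In the authors' deposited table Acad10 was -0.48 (adjusted p 0.0131), Bdh1 -0.59 (adjusted p 0.00289) and Crat 0.64 (adjusted p 0.00269). In the authors' deposited table for iAMPK_HFD vs. L-iAMPK_HFDdoxy, where genotype and doxycycline both differ, Cpt1a, Slc22a5, Acad10, Hsd17b10 and Bdh1 were lower, 5 members against 3.41% of genes, and Crat was higher, 1 against 2.53%.

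Doxycycline without Albumin-Cre moved 0 members past the test, in iAMPK HFD+dox against iAMPK HFD, against 0% of tested genes. At an unadjusted p under 0.05 there were 2 members and 786 of all genes, and edgeR on recovered reads, without iAMPK HFD+dox replicate 2, also called 0 members. Member changes ran from -0.30 (Acsm3) to 0.11 (Acad9), with a median of -0.08 beside 0.02 for all genes. Cpt1a was -0.03, Acadl -0.07, Acad10 -0.10 and Bdh1 0.09.

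The genotypes were also compared without doxycycline. In L-iAMPK HFD against iAMPK HFD, 5 members rose and 0 fell, against 3.04% and 1.27% of tested genes, and the median change was 0.17 beside 0.08 for all genes. They were Acad12 at 0.49 ± 0.09 (adjusted p 0.0165), Acads at 0.36 ± 0.06 (adjusted p 0.0175), Hadha at 0.31 ± 0.07 (adjusted p 0.0398), Acadl at 0.28 ± 0.07 (adjusted p 0.0382) and Decr1 at 0.28 ± 0.07 (adjusted p 0.0494). After median-ratio scaling 1 rose, Acad12 at 0.39 (adjusted p 0.0210), against 1.4% of genes, and 1 fell, Acsm5 at -0.52 (adjusted p 0.0463), against 2.27%. After quantile normalization 6 rose and 1 fell, against 2.31% and 2.54%, and with edgeR 1 rose and 0 fell, against 1.13% and 1.71%. The 3 medium-chain synthetases all had their L-iAMPK HFD libraries below those of iAMPK HFD, as 6.8% of tested genes did, at -0.49, -0.29 and -0.41, without passing on deposited FPKM. The count of 5 was 0 without iAMPK HFD replicate 1 or without L-iAMPK HFD replicate 1 or 2, and 1 without iAMPK HFD replicate 3. It was 2 without iAMPK HFD replicate 2, without iAMPK HFD+dox replicate 2 and without L-iAMPK HFD+dox replicate 1 or 2, and 3 without L-iAMPK HFD+dox replicate 3. Without L-iAMPK HFD replicate 3, 4 rose and 2 fell. On deposited FPKM, L-iAMPK HFD was the group with the highest mean for 24 of the 33 members. L-iAMPK HFD+dox was the group with the lowest mean for 22. The shares of all tested genes with these orders were not counted, nor were the orders after scaling. Size factors were 1.05 to 1.09 in L-iAMPK HFD and 0.926 to 0.960 in L-iAMPK HFD+dox. The comparisons share libraries, so these orders are not independent of each other.

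Whether doxycycline acted differently in the 2 genotypes was tested directly as the interaction, the change with doxycycline in L-iAMPK minus that in iAMPK. It was below 0 at an adjusted p under 0.05 for 13 members and above 0 for 0, against 11.2% and 2.01% of tested genes, and after scaling for 2 and 1, against 5.32% and 6.74%. After quantile normalization it was below 0 for 10 and above for 0, against 4.95% and 5.92%, and with edgeR for 2 and 0, against 3.22% and 2.44%. The edgeR fit lacked iAMPK HFD+dox replicate 2, without which limma put 4 below 0. The median of the members was -0.31 and that of all genes -0.15 on deposited FPKM and, for all genes, 0.04 after scaling. Bdh1 at -0.95 ± 0.14 (adjusted p 0.00611) and Acad10 at -0.81 ± 0.12 (adjusted p 0.00580) had the lowest values among them and passed in each of the 21 alternatives, at -0.74 and -0.61 after scaling. Cpt1a at -0.71 ± 0.19, Acadl at -0.55 ± 0.09 and Acat1 at -0.53 ± 0.09 followed (adjusted p 0.0333, 0.00808 and 0.00813). Slc22a5, at -0.79 ± 0.24, did not pass (adjusted p 0.0529). Bdh2 was above 0 after scaling, at 0.49 (adjusted p 0.0487). The count of 13 was 4 without iAMPK HFD replicate 1 or iAMPK HFD+dox replicate 2. It was 6 without L-iAMPK HFD+dox replicate 2 or 3, 7 without L-iAMPK HFD replicate 1 and 8 without L-iAMPK HFD replicate 2. The remaining 6 refits gave 10 to 13.

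Replicates of a group lay close together for most members. The median coefficient of variation over the 33 was 5.08% in iAMPK HFD, 5.91% in iAMPK HFD+dox, 7.87% in L-iAMPK HFD and 4.96% in L-iAMPK HFD+dox. The widest member was Crat in iAMPK HFD, Acsm3 in iAMPK HFD+dox (17.2%), Acadsb in L-iAMPK HFD (26.9%) and Slc22a5 in L-iAMPK HFD+dox (23.0%). In L-iAMPK HFD, replicate 3 was the highest of the 3 for Acadsb at 29.6, 29.7 and 46.01 FPKM, for Cpt2 at 79.5, 77.8 and 103 FPKM and for Etfb at 213, 205 and 285 FPKM.

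Genes around the pathway were counted in L-iAMPK HFD+dox against L-iAMPK HFD. Of 26 other mitochondrial acyl-CoA and ketone body genes 23 were tested. Of these 12 fell and 1 rose, against 21.1% and 4.76% of all genes (4 and 2 after scaling, against 10.6% and 13.1%). The median change was -0.33 beside -0.13 for all genes. Among those that fell were Acsf3, a mitochondrial malonyl-CoA synthetase, at -0.64 ± 0.08, Hibch of valine breakdown at -0.46 ± 0.08 and Pcca, a propionyl-CoA carboxylase subunit, at -0.38 ± 0.07 (adjusted p 0.000662, 0.00378 and 0.00456).

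After scaling 0 of 13 genes of malonyl-CoA synthesis and regulators passed, against 10.6% of all genes that fell and 13.1% that rose. On deposited FPKM the median was -0.14 beside -0.13 for all genes. There 1 of the 13 fell and 0 rose, against 21.1% and 4.76%. Ppara, the fatty acid receptor that switches on many genes of the pathway, was the one, at 68.7, 61.8 and 70.7 FPKM against 91.4, 93.9 and 82.3 FPKM and a change of -0.41 ± 0.12 (adjusted p 0.0254; 0.226 after scaling). The acetyl-CoA carboxylase genes Acaca and Acacb varied widely within L-iAMPK HFD, at 12.4, 14.2 and 4.24 FPKM and 36.7, 39.2 and 12.1 FPKM, replicate 3 being the low library. They did not pass at -0.20 ± 0.48 and -0.90 ± 0.44 (adjusted p 0.789 and 0.154). Ppargc1a, a coactivator of mitochondrial genes, was -0.05 ± 0.16 (adjusted p 0.840). Ppargc1b and Lpin1, at -0.45 and -0.80, did not pass.

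Of 14 PPARα target genes outside the mitochondrial pathway, 6 fell and 0 rose, against 21.1% and 4.76% of all genes. The median was -0.56 beside -0.13 for all genes. After scaling 5 fell and 1 rose, against 10.6% and 13.1%. The summed level of the 14 genes was 13328 ± 569 FPKM in L-iAMPK HFD+dox and 12538 ± 1113 FPKM in L-iAMPK HFD. Cyp4a14, a fatty acid ω-hydroxylase, stood at 21.4, 16.7 and 7.74 FPKM in L-iAMPK HFD+dox and 138, 114 and 69.8 FPKM in L-iAMPK HFD, a change of -2.83 ± 0.54 (adjusted p 0.00609). Vnn1, a pantetheinase, and Ehhadh, the peroxisomal bifunctional enzyme, changed by -0.49 ± 0.10 and -0.67 ± 0.16 (adjusted p 0.00673 and 0.0122). Pdk4 and Fgf21 did not pass, at -0.11 ± 0.48 and -0.13 ± 0.50 (adjusted p 0.885 and 0.864). Of 20 mitochondrial genes outside fatty acid oxidation, 5 fell and 0 rose on deposited FPKM, against 21.1% and 4.76% of all genes. The median was -0.18 beside -0.13 for all genes. After scaling 0 passed, against 10.6% that fell and 13.1% that rose. Mfn2, Immt, Vdac1 and Mdh2 had the smallest p-values among the 20, at -0.38, -0.30, -0.27 and -0.30.

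The cell type markers behind those counts were as follows, beside 21.1% of tested genes that fell and 4.76% that rose. After scaling those shares were 10.6% and 13.1%. Of 6 stellate cell markers 4 fell (2 after scaling), Lrat at -1.57, Ecm1 at -0.58, Reln at -0.61 and Des at -0.46, and their summed level was 120.1 to 151 FPKM in L-iAMPK HFD+dox and 178 to 215 FPKM in L-iAMPK HFD. Of 6 endothelial markers 3 fell (2 after scaling), Pecam1 at -0.58, Oit3 at -0.62 and Stab2 at -0.40, and summed levels were 68.5 to 87.7 and 86.1 to 98.7 FPKM. Of 4 cholangiocyte markers 1 fell, Krt7 at -0.84, with summed levels of 1.12 to 1.80 and 2.22 to 6.80 FPKM. Of 8 macrophage and Kupffer cell markers 0 passed, with sums of 115 to 222 and 177 to 223 FPKM. Of 7 hepatocyte markers tested 2 rose, Apoa2 at 0.41 and Ttr at 0.38, 0 fell, and the sum was 49722 to 59162 and 53274 to 58622 FPKM. Of 4 lymphocyte markers 1 was tested, Cd3g, and did not pass. The 4 adipocyte markers summed to at most 0.099 FPKM in any library and Lep was listed at 0 in all 12. The 3 muscle markers summed to at most 1.20 FPKM, in iAMPK HFD+dox replicate 2. In bulk liver, fewer cells of a type and less RNA per cell cannot be told apart.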

How the data were processed

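Poly(A) RNA of flash-frozen liver was sequenced from stranded libraries, per the labels' protocols, in 12 samples. The submitters' processing notes name FastQC, HOMER, STAR 2.4.0k, edgeR 3.6.8 and mm10, without saying which step each served. No source used here says if reads were counted by strand. FPKM values per gene were deposited with 0.5 added to every value, which was subtracted here. A second table that the authors deposited holds library-scaled tags (a signal), and beside them log2 changes and p-values, raw and adjusted, from comparisons they ran. The 33 members and all lists were chosen with earlier results of these data known, and were matched by the symbol before the first bar of the annotation column.

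From the FPKM, limma 3.58.1 (R 4.3.3) fitted 4 group means to log2(FPKM + 0.5), with trended and robust variances, over the 12614 genes that reached 0.5 FPKM in 3 or more libraries. P-values were adjusted by the Benjamini-Hochberg method over all of these genes, with a threshold of 0.05, and are two-sided. The genes named are the 33 members and, of each list, those with the smallest p-values or central roles, the latter chosen after their values were seen; some genes counted in the lists are not reported here by name. Each value rests on 3 libraries per group. Replicates differed by more than counting noise (chi-square of at least 7.93 per degree of freedom), so none was merged. Whole reads were recovered from the scaled tags to within 0.02 of a read. As an alternative, edgeR's quasi-likelihood test (4.0.16) was run on the reads of 11 libraries over 13773 genes. iAMPK HFD+dox replicate 2 was left out of that fit because 1 of its reads was worth 0.995 scaled tags, close to 1. Its values came as near to whole reads as those of the other libraries, with a largest deviation of 0.00502. Other alternatives were median-ratio scaling (size factors 0.926 to 1.09), quantile normalization, a pseudocount of 0.1 or of 1, a filter at 2 FPKM or none at all, a replicate block, limma without trend or robust variances, a fit of the compared libraries alone, and leaving out each library in turn. Near copies were found with blastn 2.17.0 among GENCODE vM21 transcripts, at 95% identity or more over 200 bases or more. Gene coordinates are those of the FPKM table (mm10).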

Additional observations from a re-analysis of the deposited data

Results flagged for a closer look

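The change with doxycycline differed between L-iAMPK and iAMPK for 13 members by the interaction test (limma, Benjamini-Hochberg adjusted over all tested genes), against 11.2% of all tested genes with an interaction below 0. After median-ratio scaling and with edgeR on recovered reads, 2 of the 13 passed in each, Acad10 and Bdh1, and the other 11 did not. The edgeR fit lacked iAMPK HFD+dox replicate 2. The interaction was -0.95 for Bdh1, -0.81 for Acad10, -0.71 for Cpt1a, -0.55 for Acadl and -0.53 for Acat1. It was -0.47 for both Hadh and Eci1, -0.44 for Decr1 and -0.43 for Hadha. It was -0.40 for both Acad9 and Etfdh, -0.36 for Etfa and -0.31 for Echs1. Acadl, Acad10, Acat1 and Bdh1 passed in all 12 refits without a library. Hadh and Decr1 missed in 2 refits, Eci1 and Etfdh in 5, Hadha in 6, Cpt1a in 7, Acad9 in 10, and Echs1 and Etfa in 11.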

How the results depend on the processing

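In L-iAMPK HFD+dox against L-iAMPK HFD, 20 members fell; 10 did after median-ratio scaling and 9 with edgeR on recovered reads, and 1 rose with each of these and with quantile normalization. Leaving out a library gave 18 to 20 that fell and 0 that rose, while 1500 to 3092 of all tested genes fell. In L-iAMPK HFD+dox against iAMPK HFD+dox, 11 fell; 4 did after median-ratio scaling, 5 after quantile normalization, 4 with no filter, 5 with only the compared libraries and 2 with edgeR, and 3 to 12 without a library. There 1 rose after median-ratio scaling, 2 after quantile normalization and 0 to 1 without a library. In that comparison 1301 of all 12614 tested genes fell, 890 with only the compared libraries and 1142 with the replicate block. With no filter 574 of 24453 genes fell, and without a library 609 to 1961 did. In L-iAMPK HFD against iAMPK HFD, 5 rose; 1 did after median-ratio scaling, with only the compared libraries and with edgeR, 0 with no filter, and 0 to 5 without a library. There 1 fell after median-ratio scaling and after quantile normalization, and 0 to 2 did without a library. Between these groups 384 of all 12614 tested genes rose, 227 with only the compared libraries and 260 with the replicate block. With no filter 7 of 24453 genes rose, and without a library 24 to 985 did. For the interaction, 13 were below 0; 2 were after median-ratio scaling, 4 with no filter, 2 with edgeR and 4 to 13 without a library, and 1 was above 0 after median-ratio scaling. Doxycycline in iAMPK gave 0 members under every alternative, leaving out a library included. All edgeR counts are from a fit without iAMPK HFD+dox replicate 2. Across groups, 18 correlations of same-numbered libraries ran from -0.275 to 0.446, and those of differently numbered libraries from -0.304 to 0.344. The labels do not say what the replicate numbers mark, and whether they mark a shared batch or litter was not tested. With the replicate block, 7 members fell between the genotypes on doxycycline, 3 rose between the genotypes without it, 20 fell with doxycycline in L-iAMPK and 11 were below 0 for the interaction. Of the single-member values of calls under alternatives, 408 of 440 with doxycycline in L-iAMPK, 153 of 242 between genotypes on doxycycline, 56 of 110 between genotypes without it and 177 of 273 for the interaction still passed, and 0 changed sign. The cause of the differences between alternatives was not tested. Depth limits Acad12, with as few as 98 reads, more than other members. Over all tested genes, 600 rose and 2659 fell with doxycycline in L-iAMPK, with no filter 339 and 1453 did, and with the replicate block 540 and 2379. The interaction was below 0 at an adjusted p under 0.05 for 1409 of 12614 genes and for 1208 with the replicate block. With no filter it was for 164 of 24453 genes, and without a library for 437 to 2487.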
